A study of Mus musculus with 6 samples.

Results

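MicroRNAs are read in an RNA-seq library only through the longer transcripts that carry them, and 63 such genes of the mouse pancreas are described here: 57 microRNA precursor loci and 6 microRNA host genes. They were chosen by name and by level: the gene entries whose symbol starts with Mir followed by a digit or by let7 and whose normalized read count was 10 or more in at least 3 of 6 libraries. The level is therefore no finding here. Before that level filter the table held 637 such names, 627 precursor loci and 10 genes ending in hg, among 37761 gene entries. The embryonic group is whole pancreas dissected from wild-type mouse embryos at stage e15.5 (3 libraries), and the adult group is pancreatic islets freed with collagenase from wild-type mice 12 weeks old (3 libraries). Strain, sex and the number of animals behind a library are not stated in these sources. Tissue, way of isolation and age all differ between the groups, so their effects cannot be told apart. The labels do not say whether each library stands for its own animal or litter; the p-values below therefore describe the spread between libraries, which may be technical.

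A microRNA is cut out of a primary transcript in 2 steps. In the nucleus, Drosha and Dgcr8 release a hairpin, the precursor. In the cytoplasm, Dicer trims the hairpin to a short duplex, and 1 strand is loaded onto an Argonaute protein, where the bases at positions 2 to 8, the seed, pair with target mRNAs. The libraries were made from total RNA with a kit for longer RNA, so a value at a precursor locus counts fragments of primary or host transcripts that cover the hairpin. It is no measure of the mature microRNA. In the pancreas miR-375 and miR-7 are known as islet microRNAs, the let-7 family as a group that accumulates as tissues mature, and the miR-17/92 cluster as a group that supports proliferation.

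The mature sequences of the members on which the results turn follow, from RefSeq (GRCm38.p6), 5′ to 3′, with the seed in capitals. They are shown because several of the loci described below encode microRNAs with the same seed; differences between loci of a seed were not tested. Of the 57 precursor members, 56 had an entry, with 97 mature sequences in all. For Mir375 the only entry was miR-375-5p, and the sequence of miR-375-3p was missing. The seed shown for Mir375 is therefore not to be read as that of the islet microRNA described below. The first 3 belong to the let-7 family, the next pair to the miR-7 family and the pair after that to the miR-15/16 family.
let-7a-5p (Mirlet7a-1): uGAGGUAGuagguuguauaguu
let-7c-5p (Mirlet7c-1): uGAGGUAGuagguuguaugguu
miR-98-5p (Mir98): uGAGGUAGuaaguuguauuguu
miR-7a-5p (Mir7-1): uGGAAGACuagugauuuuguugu
miR-7b-5p (Mir7b): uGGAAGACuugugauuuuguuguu
miR-15a-5p (Mir15a): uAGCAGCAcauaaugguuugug
miR-322-5p (Mir322): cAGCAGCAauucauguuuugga
miR-758-5p (Mir758): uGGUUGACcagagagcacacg
miR-1197-5p (Mir1197): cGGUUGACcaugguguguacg
miR-351-5p (Mir351): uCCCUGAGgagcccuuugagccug
miR-335-5p (Mir335): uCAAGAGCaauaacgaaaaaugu
miR-483-3p (Mir483): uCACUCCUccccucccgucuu
miR-99a-5p (Mir99a): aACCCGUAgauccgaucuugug
miR-29a-3p (Mir29a): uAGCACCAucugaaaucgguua
miR-375-5p (Mir375): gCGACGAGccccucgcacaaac

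The host genes have their own microRNAs. A few are shown because the text returns to their hosts; miR-17 and miR-20a share a seed, and the seed of miR-125b is that of miR-351 above.
miR-17-5p (in Mir17hg): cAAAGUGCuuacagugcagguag
miR-20a-5p (in Mir17hg): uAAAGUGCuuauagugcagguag
miR-22-3p (in Mir22hg): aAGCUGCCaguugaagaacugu
miR-125b-5p (in Mir99ahg): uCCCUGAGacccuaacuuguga

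The libraries held 35059950 to 39713899 reads in genes in the embryonic group and 41983532 to 47346870 in the islets. The values are read counts divided by a size factor for each library, called signal here. Over genes, libraries of the same group had Spearman correlations of 0.977 to 0.994, and libraries of different groups 0.776 to 0.807. Embryonic library 3 listed no reads of low alignment quality, against 1264897 to 2083120 in the other 5, and it alone had genes at 0 that reached 20 or more in all others: 2 genes, Mir692-2 and Gm24187. Of the marker lists, all 10 beta cell markers were higher in islets. All 10 mesenchyme markers were lower in islets, with 0.407% to 0.525% of the assigned reads in the embryonic libraries and 0.00278% to 0.00543% in the islets. All 6 cell division genes were lower as well, from 0.275% to 0.309% down to 0.00571% to 0.00583%, and so were all 8 erythroid genes. Acinar markers took 1.13% of reads in islet library 2 against 0.425% and 0.579% in the other islet libraries. Fewer cells of a type and less RNA per cell cannot be told apart in such bulk samples, and the part of these shifts in the results below was not tested.

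The comparison of adult islets with embryonic pancreas used limma-trend on log2(signal + 1) over 21653 genes, and a gene is called at a Benjamini-Hochberg adjusted p under 0.05. All log2 fold changes are islets over embryonic pancreas on that scale, which understates the change of genes at low signal. The 2 tissues differ widely: 72.8% of all genes tested were called, 36.2% higher and 36.6% lower in islets, and the libraries of the groups did not overlap for 77.1% of genes. Member counts have to be read against that background. The filter is met by a locus that is high in only 1 group, and such a locus had to differ. Loci at 10 or more in at least 1 library of each group are therefore given with their test. Loci that reached 10 in 1 group alone are given by their values and by the ratio of pooled reads with an exact 95% counting interval, and no test.

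Among the 6 host genes that passed the filter, 2 rose and 3 fell. Mir99ahg, the long noncoding host of miR-99a, let-7c and miR-125b (chr16:77236317-77773427, plus strand, mm10), had a signal of 2415, 1695 and 2721 in the embryonic libraries against 50.5, 59.5 and 32.2 in the islets. The lowest embryonic library stood far above the highest islet library, and the log2 fold change was -5.57 ± 0.25 (SE; limma-trend adjusted p = 1.47e-07). Mir17hg, the host of the miR-17/92 cluster (chr14:115042879-115046727, plus strand), had 1186, 1713 and 1231 in the embryonic libraries against 99.96, 109 and 50.4 in the islets. The groups again did not overlap, with a log2 fold change of -4.03 ± 0.29 (limma-trend adjusted p = 2.26e-06). The 6 hairpins of that cluster, Mir17, Mir18, Mir19a, Mir20a, Mir19b-1 and Mir92-1, lie in an exon of Mir17hg, and signal at these hairpins was not analysed here.

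Mir22hg and Mir670hg went the other way. Mir22hg (chr11:75461539-75466676, plus strand), which holds the miR-22 hairpin in an exon, had 46.1, 59.5 and 62.1 in the embryonic libraries against 992, 940.0 and 793 in the islets. Every islet library was above every embryonic one, and the log2 fold change was 4.0 ± 0.17 (limma-trend adjusted p = 1.02e-07). Mir670hg (chr2:94160636-94264918, minus strand), which spans the hairpins of miR-670 and miR-129-2, had 11.5, 17.7 and 16.4 against 403, 506 and 567. Its rise of 4.93 ± 0.24 on the log2 scale was the steepest of the 6 (limma-trend adjusted p = 2.13e-07). The Mir670 hairpin itself, which touches an exon of the host, held no read in the embryonic libraries against 2.20, 0.992 and 3.22 in the islets, so it did not pass the filter.

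The remaining host genes were low. Mir133a-1hg, which spans the hairpins of the muscle microRNAs miR-133a and miR-1, had 25.9, 21.9 and 30.3 in the embryonic libraries against 10.98, 5.95 and 13.9 in the islets. It fell by 1.32 ± 0.36 on the log2 scale (limma-trend adjusted p = 0.00954), but the call was lost under quantile normalization (adjusted p = 0.0551). Mir155hg, the host of the leukocyte microRNA miR-155, had 7.68, 12.5 and 11.4 in the embryonic libraries against 13.2, 9.92 and 3.22 in the islets. These ranges overlapped and the gene was not called (log2 fold change -0.39 ± 0.48, limma-trend adjusted p = 0.492). Of 6 leukocyte markers 5 fell and 1 rose, and summed they took 0.00926% to 0.0123% of embryonic and 0.00338% to 0.00422% of islet reads. Striated muscle markers took 0.00129% to 0.00445% of reads in the embryonic libraries and 0.000698% to 0.000793% in the islets beside the fall of Mir133a-1hg; their part in it was not tested.

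**Figure D1:**
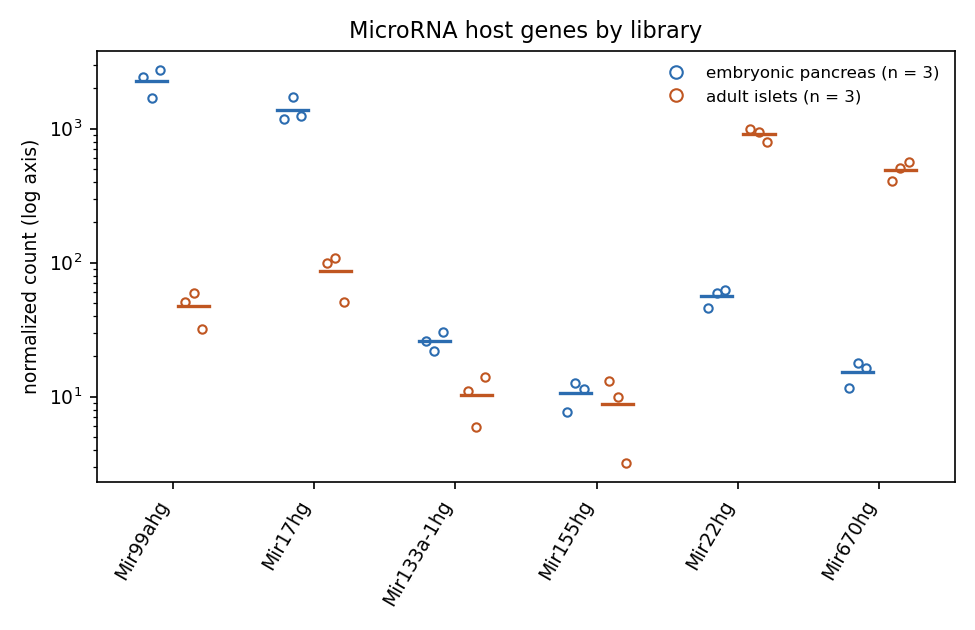
Normalized count (signal) of the 6 microRNA host genes in each library on a log axis, with a point per library and a bar at the group mean. Mir99ahg and Mir17hg sit higher in all 3 embryonic libraries, Mir22hg and Mir670hg higher in all 3 islet libraries, and the Mir155hg libraries overlap.

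In embryonic libraries alone, 17 precursor loci reached 10, a count given as a description without the share of all genes that did so. These loci had embryonic means of 11.8 to 71.8 and islet means of 0 to 7.05, resting on 38 to 230 reads in the embryonic group and 0 to 20 in the islets. Of the 17, 7 lie in the imprinted Dlk1-Meg3 region of chromosome 12, which is described further on. Among those outside that region are microRNAs known for their ties to growth, cell cycle exit and imprinted genes. Mesenchyme and cell division markers were high in the same 3 libraries, in the ranges given above; their part in these values was not tested.

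Mir335 had the highest embryonic mean of the 17 outside chromosome 12. It lies in an intron of Mest, an imprinted mesoderm gene expressed from the paternal allele (chr6:30741299-30741396, plus strand). Its signal was 68.2, 85.6 and 57.2 in the embryonic libraries against 1.10, 6.94 and 6.44 in the islets, and pooled reads gave a ratio of 14.1 (8.22 to 26.2). Mest itself fell from 24597 ± 2514 (SD, n = 3) to 638 ± 127, a log2 fold change of -5.28 ± 0.15 (limma-trend adjusted p = 1.66e-08). Mir483, in an intron of the fetal growth factor gene Igf2 (chr7:142654924-142654996, minus strand), had 12.5, 11.5 and 11.4 and then no read in any islet library, at least 11.2-fold lower when 3 reads over the group are allowed. Igf2 itself had 434, 396 and 514 against 4.39, 1.98 and 2.15, so host and hairpin were both near 0 in the islets.

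Mir351 and Mir322 are neighbours on the X chromosome, in a cluster known for microRNAs of cell cycle control and muscle differentiation. Mir351 (chrX:53053255-53053353, minus strand) had 56.7, 35.5 and 74.4 in the embryonic libraries against 1.10, 0 and 2.15 in the islets, 3 reads in all, a ratio of 54.3 (18.3 to 266). Mir322, whose 5p arm shares the seed of miR-15a-5p, had 23.1, 23.0 and 10.6 against 1.10, 0 and 0. Its ratio of 52.2 rests on 1 islet read (9.01 to 2096). Mir503 of the same cluster did not pass the filter, with an embryonic mean of 7.93 ± 3.10 (SD, n = 3) and no islet read. Longer transcripts next to these hairpins on the same strand showed the same direction. Gm28730, 0.096 kb from Mir351, had 192 ± 16.9 (SD, n = 3) against 0.697 ± 0.606, a ratio of 275 on 2 islet reads (75.8 to 2277). C430049B03Rik, 0.697 kb from Mir322, had 751 ± 47.2 against 4.19 ± 0.887 (ratio 179, 102 to 347).

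Mir15a is the other member with that seed. It lies in an intron of the noncoding gene Dleu2, which fell by 1.53 ± 0.13 on the log2 scale (limma-trend adjusted p = 5.79e-06), and its own values were 22.1, 26.1 and 20.4 against 6.59, 4.96 and 5.36. The ratio of pooled reads was 4.04 (2.33 to 7.43). The remaining loci of this kind outside chromosome 12 were Mir1983 with 36.3 ± 3.48 against 0.732 ± 1.27 and Mir301 with 17.8 ± 1.8 against 1.42 ± 0.674, besides Mir99a, Mirlet7c-1 and Mir467f. Mir301 sits in an intron of the spindle gene Ska2, which fell by 2.14 ± 0.09 on the log2 scale (limma-trend adjusted p = 8.37e-08).

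In islet libraries alone, 7 precursor loci reached 10, a count that is likewise a description, and none of them lies in the Dlk1-Meg3 region. Their islet means ran from 12.6 to 23.8, on 36 to 67 reads in the group, against embryonic means of 0.545 to 5.74. The microRNAs best known from islets were among them. Mir375 (chr1:74900658-74900721, minus strand), whose mature product restrains insulin secretion, had 4.80, 4.17 and 1.64 in the embryonic libraries against 30.8, 14.9 and 25.8 in the islets. The pooled ratio was 6.88 (3.61 to 14.4). The gene nearest to Mir375 on its strand, Cfap65 at 1.35 kb, had 2.53 ± 1.61 against 8.94 ± 5.26, a ratio of 3.53 (1.54 to 9.06). Cryba2, a crystallin gene on the other side of the hairpin and on the same strand, rose from 204 ± 73.0 to 822 ± 28.2 (log2 fold change 2.06 ± 0.22, limma-trend adjusted p = 3.35e-05).

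Mir7b (chr17:56242988-56243098, plus strand) had 2.88, 3.13 and 2.45 in the embryonic libraries against 30.8, 16.9 and 23.6 in the islets, a ratio of 8.41 (4.18 to 19.2). Mir29a had 0.961, 3.13 and 2.45 against 16.5, 18.8 and 15.02, a ratio of 7.75 (3.49 to 20.3). The lincRNA Gm27019, 0.345 kb from Mir29a on the same strand, had 1.26 ± 0.583 against 29.5 ± 6.95 (ratio 23.7, 8.93 to 89.1). Mir384, on the X chromosome and known from brain, rested on 2 embryonic reads: 0, 0 and 1.64 against 12.1, 14.9 and 10.7, a ratio of 20.3 (5.24 to 174).

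The other 3 of these loci lie in introns of genes that were themselves higher in islets. Mir691 had a mean of 5.51 ± 2.28 in the embryonic libraries and 23.2 ± 1.39 in the islets (ratio 4.14, 2.43 to 7.42), inside Robo2, an axon guidance receptor gene that rose by 3.79 ± 0.12 on the log2 scale (limma-trend adjusted p = 2.38e-08). Mir340 had 3.81 ± 2.75 against 14.5 ± 3.36 inside Rnf130, which rose by 2.48 ± 0.12 (limma-trend adjusted p = 1.89e-07). Mir23b had 5.74 ± 2.25 against 21.4 ± 5.63 inside 2010111I01Rik, a gene that rose by 0.93 ± 0.09 (limma-trend adjusted p = 1.96e-05).

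**Figure D2:**
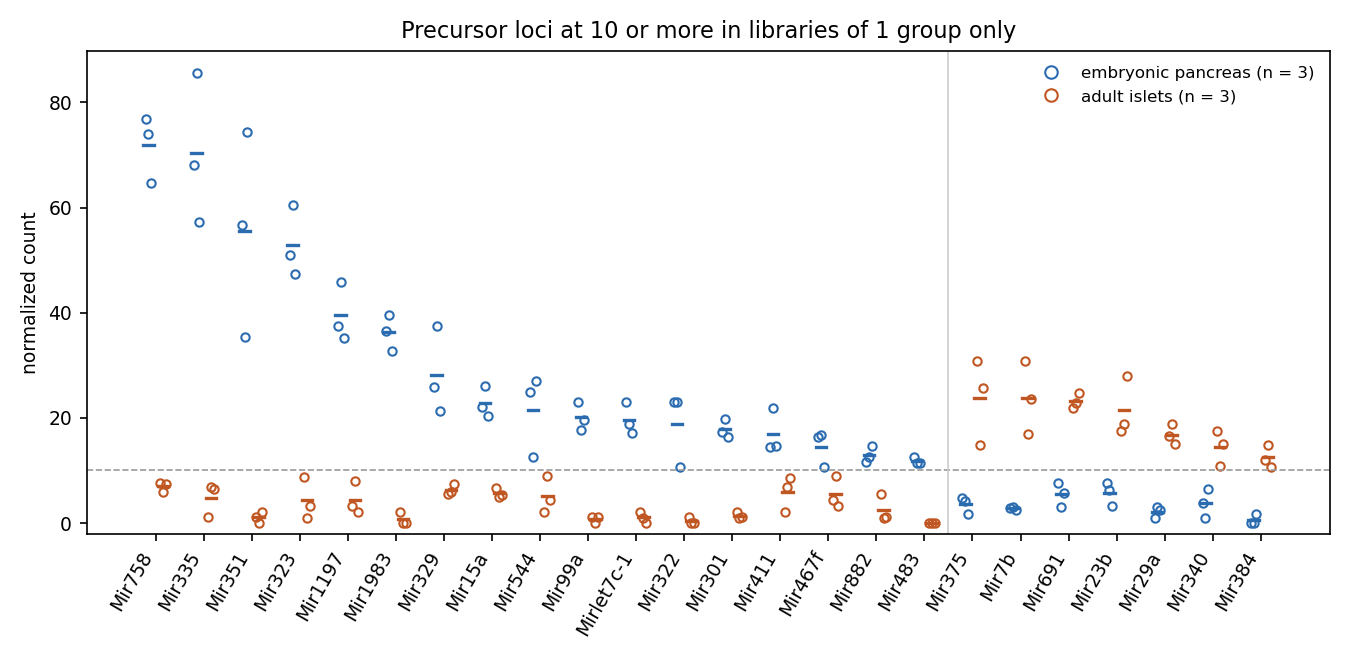
Normalized count (signal) in each library of the precursor loci that reached 10 or more in the libraries of 1 group only, on a linear axis, with a point per library, a bar at the group mean and the dashed line at the filter's value of 10. The 17 embryonic loci have islet means of 0 to 7.05, and the 7 islet loci have embryonic means of 0.545 to 5.74.

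The other 33 precursor loci reached 10 in at least 1 library of each group. Of these, 3 were called higher in islets, 13 lower and 17 were not called, which is 16 called of 33 beside 72.8% of all genes. Their log2 fold changes ran from -1.69 to 2.79 with a median of -0.72, beside -0.03 over all genes tested, and the groups were apart for 17 loci lower and 5 higher, beside 38.7% and 38.3% of all genes. The direction of this balance depends on the scaling: under quantile normalization 7 were called higher and 4 lower, beside 8247 and 7720 of all genes. With the 20 most abundant genes of each group left out of the scaling, 3 were called higher and 19 lower. Over all genes that scaling called 6636 higher and 9506 lower. Of the 33, 17 lie in the Dlk1-Meg3 region, so many of these loci share 1 stretch of chromosome 12. Some passed mainly through 1 group: Mir679, Mir677 and Mir154 had 3 embryonic libraries and 1 islet library at 10 or more. The filter favoured a fall there, and Mir679 and Mir677 are among the 13 called lower. The counts are therefore a description.

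Higher in islets were Mir6236, Mir344-2 and Mir5125. Mir6236 had 13.4, 3.13 and 18.0 in the embryonic libraries against 61.5, 51.6 and 60.1 in the islets (log2 fold change 2.49 ± 0.53, limma-trend adjusted p = 0.00247). All 3 islet libraries were above the embryonic ones. Its hairpin was not among those searched for further copies in the genome, so the source of its reads is uncertain. Mir344-2, within the noncoding gene A330076H08Rik, had 14.4, 8.35 and 11.4 against 30.8, 40.7 and 55.8, a rise of 1.8 ± 0.34 (limma-trend adjusted p = 0.00117). Its host rose by 2.63 ± 0.27 on the log2 scale (limma-trend adjusted p = 2.34e-05). Reads at this hairpin are uncertain, because the genome holds 2 places of at least 90% identity to it. Mir5125, inside the splicing factor gene Srrm2, had 14.4, 8.35 and 13.1 against 33.0, 23.8 and 34.3, a rise of 1.29 ± 0.32 (limma-trend adjusted p = 0.00589), while Srrm2 itself was not called at 0.00 ± 0.19.

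Mir703 gave the highest signal of all precursor loci, 1186, 1260.5 and 1133 in the embryonic libraries against 346, 438 and 490.0 in the islets. It fell by 1.5 ± 0.14 on the log2 scale (limma-trend adjusted p = 1.12e-05), with no overlap of the groups. Per kb of hairpin it stood at 10948 in the embryonic libraries, where Mir453 came next at 1067, and at 3898 in the islets, where Mir186 came next at 944. The genome holds 8 places with at least 90% identity over at least 90% of its hairpin, so the source of these reads is uncertain. Mir692-2 has 13 such places, 2 of them exact. Its signal was 33.6, 32.3 and 0 in the embryonic libraries against 72.5, 57.5 and 86.9 in the islets, and it was not called (log2 fold change 2.79 ± 1.19, limma-trend adjusted p = 0.0618). Over 15 alternatives its log2 fold change ran from 1.09, without embryonic library 3 in which it was at 0, to 3.90 at a pseudocount of 0.1. The call was made in 6 of them. These were without any 1 of the embryonic libraries, under quantile normalization, at a pseudocount of 5 and with the replicate number as a block. Adjusted p over the 15 ran from 0.00697 (limma-trend, without embryonic library 3) to 0.282 (DESeq2 on recovered reads). Of 50 member hairpins that could be searched, 45 had 1 place in the genome. Mir3070a and Mir3070b have 2 places each.

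Of the let-7 family, 3 loci passed the filter. Mirlet7a-1 (chr13:48538179-48538272, minus strand) lies in an exon of the noncoding gene 6720427I07Rik and had 30.7, 35.5 and 30.3 in the embryonic libraries against 16.5, 10.9 and 12.9 in the islets. It fell by 1.22 ± 0.29 on the log2 scale (limma-trend adjusted p = 0.00418), its host by 1.69 ± 0.12. Mirlet7c-1, within Mir99ahg (chr16:77599657-77599750), had 23.1, 18.8 and 17.2 against 2.20, 0.992 and 0, a ratio of 18.6 on 3 islet reads (6.07 to 92.5). Its neighbour Mir99a, less than a kilobase away in the same host, had 23.1, 17.7 and 19.6 against 1.10, 0 and 1.07 (ratio 28.8, 7.65 to 242). Mir98, within the ubiquitin ligase gene Huwe1, had 10.6, 2.09 and 8.18 against 14.3, 9.92 and 12.9. Those ranges overlapped, and neither Mir98 (log2 fold change 0.94 ± 0.51, limma-trend adjusted p = 0.124) nor Huwe1 (0.06 ± 0.11, limma-trend adjusted p = 0.648) was called, although Mir98 was called higher under quantile normalization. Of the 6 let-7 entries listed, Mirlet7a-2 was at a mean of 8.59 ± 1.26 in the embryonic libraries and without a read in the islets, and Mirlet7f-2 and Mirlet7g stayed under a mean of 3 in both groups.

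A pair of members carries the miR-7 seed. Mir7-1, within the RNA-binding protein gene Hnrnpk (chr13:58392779-58392886, minus strand), had 36.5, 61.6 and 41.7 in the embryonic libraries against 27.5, 33.7 and 34.3 in the islets. All embryonic libraries were above all islet ones, yet it was not called (log2 fold change -0.51 ± 0.28, limma-trend adjusted p = 0.136). The call was made, at -0.74, when the 20 most abundant genes of each group were left out of the scaling. Hnrnpk fell by 0.42 ± 0.10 (limma-trend adjusted p = 0.00567). Mir7b, above, reached 10 in islets alone. A further locus of that family, Mir7-2, was outside the filter with 0, 1.04 and 0.818 against 6.59, 16.9 and 8.58. Whether Mir7-1 and Mir7b differed in their response was not tested.

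Some other families hold few members. Of the miR-200 family of epithelial cells only Mir200a passed, with 42.3, 60.5 and 14.7 against 22.0, 22.8 and 16.1. Embryonic library 3 overlapped the islets, and the locus was not called (log2 fold change -0.72 ± 0.49, limma-trend adjusted p = 0.208). Single libraries decided this value: without embryonic library 3 the log2 fold change of Mir200a was -1.29 and the call was made (limma-trend adjusted p = 0.00679), without embryonic library 2 it was -0.31 (adjusted p = 0.570), and under quantile normalization -0.26 (adjusted p = 0.672). Mir148a had 12.5, 31.3 and 7.36 against 14.3, 11.9 and 17.2. Its groups overlapped and it was not called, at a log2 fold change of -0.01 ± 0.49 (limma-trend adjusted p = 0.989) that ran from -0.45 to 0.53 as single libraries were left out. Its nearest gene, the lincRNA Gm32479 at 13.6 kb on the same strand, did not follow it. Gm32479 had 9.95 ± 0.431 against 1.72 ± 1.54, a ratio of 5.66 (2.19 to 18.6). For several families only a few of the listed loci were analysed here, so the lack of a member says little about their level: 1 of 4 for acinar microRNAs, 1 of 3 for erythroid, 2 of 7 for leukocyte, 1 of 15 for the miR-17/92 cluster and its paralogs, 3 of 5 for the Hox clusters and 3 of 6 for the miR-30 family. None of those analysed passed the filter.

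The Dlk1-Meg3 region of chromosome 12 is an imprinted domain whose noncoding transcripts Meg3, Rian and Mirg come from the maternal allele and carry a long array of microRNA hairpins. It holds 24 of the 57 precursor members. Meg3 rose, with 9346, 8470.5 and 10398 in the embryonic libraries against 14403, 13894 and 15280.3 in the islets (log2 fold change 0.63 ± 0.10, limma-trend adjusted p = 0.000440). Rian fell from 35404 ± 2573 to 21046 ± 1777 (-0.75 ± 0.11, limma-trend adjusted p = 0.000300), and Mirg from 3781 ± 469 to 1945 ± 47.9 (-0.95 ± 0.10, limma-trend adjusted p = 2.83e-05). All the hairpins counted here lie downstream of Meg3.

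Summed over all named hairpins of a stretch, members or not, the signal was lower in islets all along the array. The 7 hairpins between Meg3 and Rian stood at 0.456 of their embryonic sum, the 3 inside Rian at 0.596, the 22 between Rian and Mirg at 0.375 and the 8 inside Mirg at 0.491. No test was made on these sums. Members within them that were called lower include Mir3070b (52.0 ± 2.58 to 18.4 ± 6.66, log2 fold change -1.5 ± 0.31, limma-trend adjusted p = 0.00194), Mir453 (87.5 ± 11.2 to 37.3 ± 13.3, -1.25 ± 0.29, limma-trend adjusted p = 0.00364) and Mir376c (56.9 ± 12.8 to 24.7 ± 4.46, -1.16 ± 0.28, limma-trend adjusted p = 0.00521). Mir494 (32.2 ± 6.66 to 13.6 ± 1.08) fell by 1.16 ± 0.29 on the log2 scale, with a limma-trend adjusted p of 0.00569. The calls of Mir376c and Mir494 were lost under quantile normalization.

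As a sum, 4 neighbouring hairpins stood lower than the rest of the array. Mir1197, Mir323, Mir758 and Mir329 lie side by side at chr12:109712317-109713577 (plus strand), and they were singled out after their values were seen. Mir758 had 76.8, 74.1 and 64.6 in the embryonic libraries against 7.69, 5.95 and 7.51 in the islets, a ratio of 10.2 (6.44 to 16.97). Mir323 had 50.9, 60.5 and 47.4 against 8.79, 0.992 and 3.22. Mir1197, whose 5p arm shares the seed of miR-758-5p, had 37.5, 45.9 and 35.2 against 3.30, 7.93 and 2.15. The seeds of miR-1197-3p and miR-758-3p differ. Mir329 had 25.9, 37.6 and 21.3 against 5.49, 5.95 and 7.51. Together the 4 went from 193 ± 24.8 to 22.2 ± 2.70, or 0.115 of the embryonic sum, beside 0.520 for the other 18 hairpins between Rian and Mirg. They made up 35.0%, 38.7% and 33.6% of that stretch in the embryonic libraries, beside 12.2%, 10.7% and 10.1% in the islets. B830012L14Rik, a lincRNA that ends 9.73 kb upstream of Mir1197 on the same strand, fell by 1.75 ± 0.29 on the log2 scale, from 555 ± 224 to 154 ± 11.2 (limma-trend adjusted p = 0.000565).

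**Figure D3:**
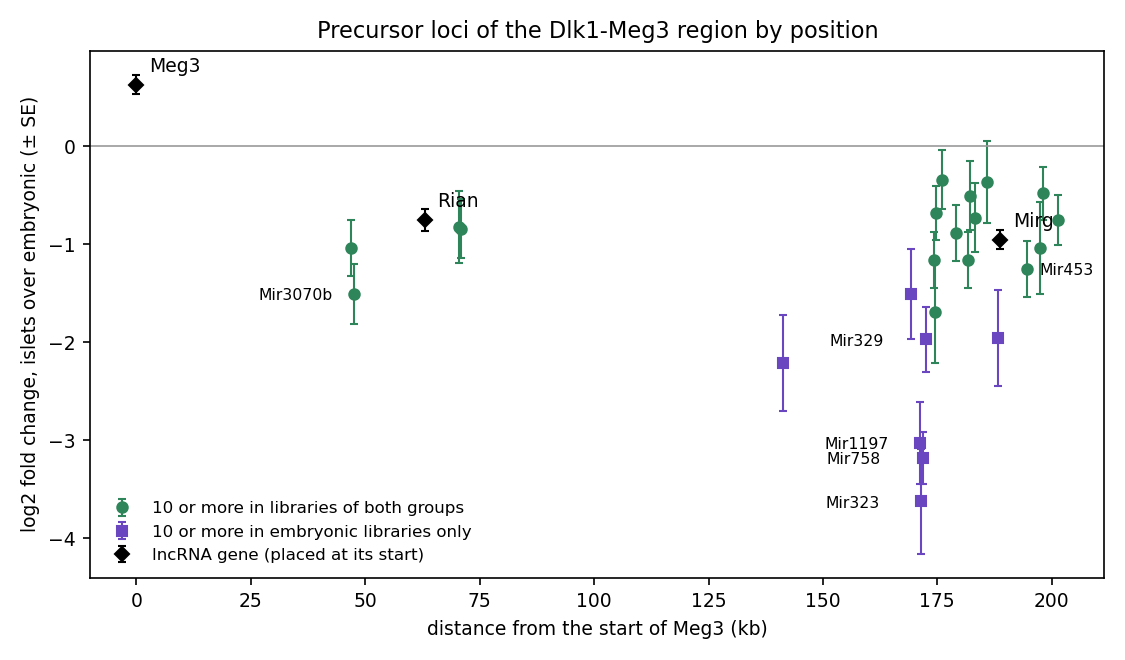
Log2 fold change (islets over embryonic pancreas, bars are SE) of the 24 precursor members (circles and squares) and of Meg3, Rian and Mirg (diamonds, placed at their start) by distance from the start of Meg3 in kb. Meg3 lies above 0 and all 24 members lie below it, of which Mir381 and Mir666 move above it under quantile normalization. The 7 squares reached 10 in embryonic libraries alone, so the filter fixed their direction. Of the hairpins outside the filter, not shown, only Mir370 (3.03 to 6.25) and Mir495 (2.60 to 6.61) had higher means in islets. The 4 hairpins from Mir1197 to Mir329 sum to 0.115 of their embryonic signal.

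By their place in the genome, 28 of the 57 precursor members were intergenic, 23 lay in an intron of a gene on the same strand, 3 in an intron of a gene on the other strand, and 3 touched an exon on the same strand. Among all 627 named precursor loci, intergenic ones made up 18.5% and same-strand introns 64.0%. A hairpin in an intron can be read from unspliced host RNA, so the log2 fold changes of 26 precursors were set beside those of the hosts. The median difference, precursor minus host, was 0.06, and 19 of the 26 pairs lay within 1 of each other. These pairs are a description, because precursor and host can be read from the same transcript and because the fold changes of loci at low signal are compressed.

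The pairs that differed most are these. Mir335, Mir483, Mir99a and Mirlet7c-1 had log2 fold changes above those of their hosts by 1.46, 3.24, 1.89 and 2.10, and all 4 had islet means under 5. The log2 fold change of Mir691 minus that of Robo2 was -1.83. Mir692-2 differed from Grik3, a glutamate receptor gene that fell by 2.80 ± 0.34 on the log2 scale (limma-trend adjusted p = 6.85e-05), by 5.59 and in direction. Mir5125 rose beside an uncalled Srrm2. Close to their hosts were Mir7-1 with Hnrnpk (-0.09), Mir1188 and Mir341 with Rian (-0.09 and -0.07) and Mir154 with Mirg (-0.09).

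**Figure D4:**
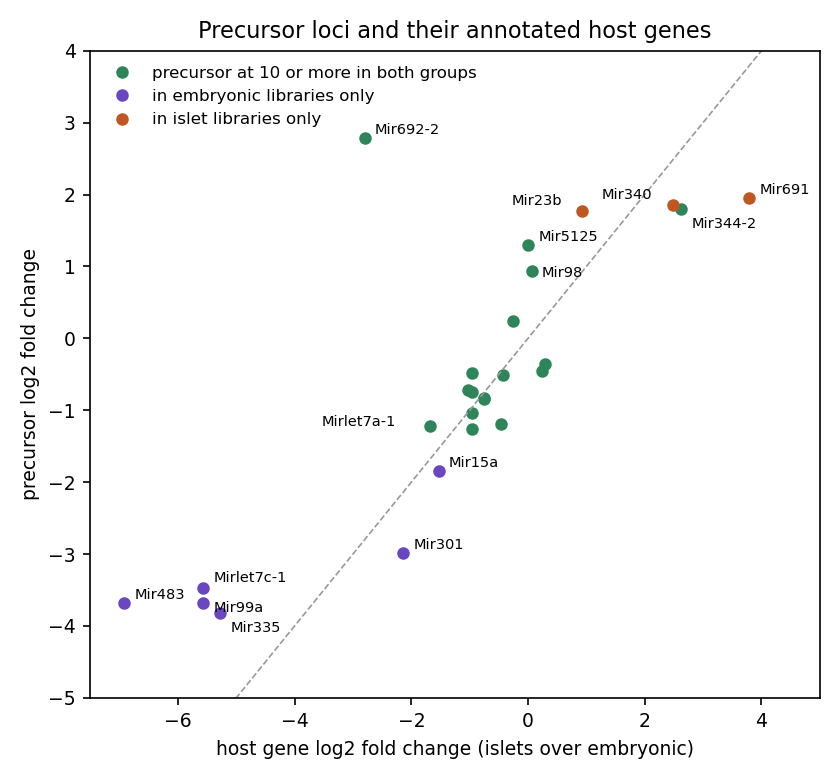
Log2 fold change (islets over embryonic pancreas, signal + 1) of 26 precursor loci against that of the annotated host gene on the same strand, coloured by the group in which the precursor reached 10, with the dashed line at equal change. 19 of the 26 pairs lie within 1 of the line, and Mir692-2 with Grik3 lies farthest from it.

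Genes that make and use microRNAs were read from a list of 32, all of which were tested. 10 were called higher in islets, 15 lower and 7 not called, with a median log2 fold change of -0.10 beside -0.03 over all genes; 25 of 32 called is close to the background of 72.8%. The balance depends on the scaling: quantile normalization gave 5 higher and 21 lower. Leaving the top 20 genes per group out of the size factors gave 5 higher and 18 lower. Over all genes, quantile normalization called 8247 higher and 7720 lower, and the other scaling 6636 higher and 9506 lower. Of the 7 nuclear processing genes 1 rose and 6 fell. Drosha, the nuclear RNase that frees the hairpin, had 3068, 3403 and 3115 in the embryonic libraries against 2242, 2353 and 2403 in the islets, a fall of 0.45 ± 0.08 on the log2 scale (limma-trend adjusted p = 0.000800). Its RNA-binding partner Dgcr8 fell by 0.80 ± 0.09 (limma-trend adjusted p = 3.65e-05). The Dicer partner Prkra fell by 1.5 ± 0.12 (limma-trend adjusted p = 4.77e-06), from 1697 ± 269 to 596 ± 13.0.

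Dicer1, the cytoplasmic RNase that trims the hairpin, had 5719, 5290.1 and 6107 against 6971, 7066 and 7790.0, a rise of 0.35 ± 0.09 (limma-trend adjusted p = 0.00658) that was lost under quantile normalization and when the 20 most abundant genes of each group were left out of the scaling. Ago2, the slicing Argonaute, was not called (-0.08 ± 0.13, limma-trend adjusted p = 0.608), but was called lower under quantile normalization (-0.378, adjusted p = 0.0462) and without embryonic library 2 (-0.217, adjusted p = 0.0347). Of the 11 Argonaute and silencing genes, 4 rose, 2 fell and 5 were not called. Ago4 rose from 173 ± 19.3 to 469 ± 80.4 (log2 fold change 1.43 ± 0.16, limma-trend adjusted p = 4.91e-05) and Ago3 by 0.55 ± 0.12 (limma-trend adjusted p = 0.00328). Both RNA-editing genes rose, Adar by 1.46 ± 0.11 and Adarb1 by 2.26 ± 0.10 on the log2 scale (limma-trend adjusted p = 4.12e-06 and 1.35e-07).

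Among the regulators of let-7, some were higher and some lower in islets. Lin28b, which blocks let-7 maturation, had 120, 133 and 150 in the embryonic libraries against 0, 0 and 1.07 in the islets, 1 read, for a pooled ratio of 386 (68.9 to 15270). It reached 10 in embryonic libraries alone, so its place among the called genes is no more than a description. Trim71, a let-7 target and RNA-binding protein of early development, fell from 450 ± 32.1 to 40.0 ± 3.74 (-3.46 ± 0.17, limma-trend adjusted p = 2.10e-07). Lin28a, the paralog of Lin28b, had 7.68, 15.7 and 14.7 in the embryonic libraries against 113, 96.2 and 124 in the islets, a rise of 3.09 ± 0.32 (limma-trend adjusted p = 2.51e-05). Of the 7 genes on the let-7 control list, 2 rose, 4 fell and 1 was not called.

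**Figure D5:**
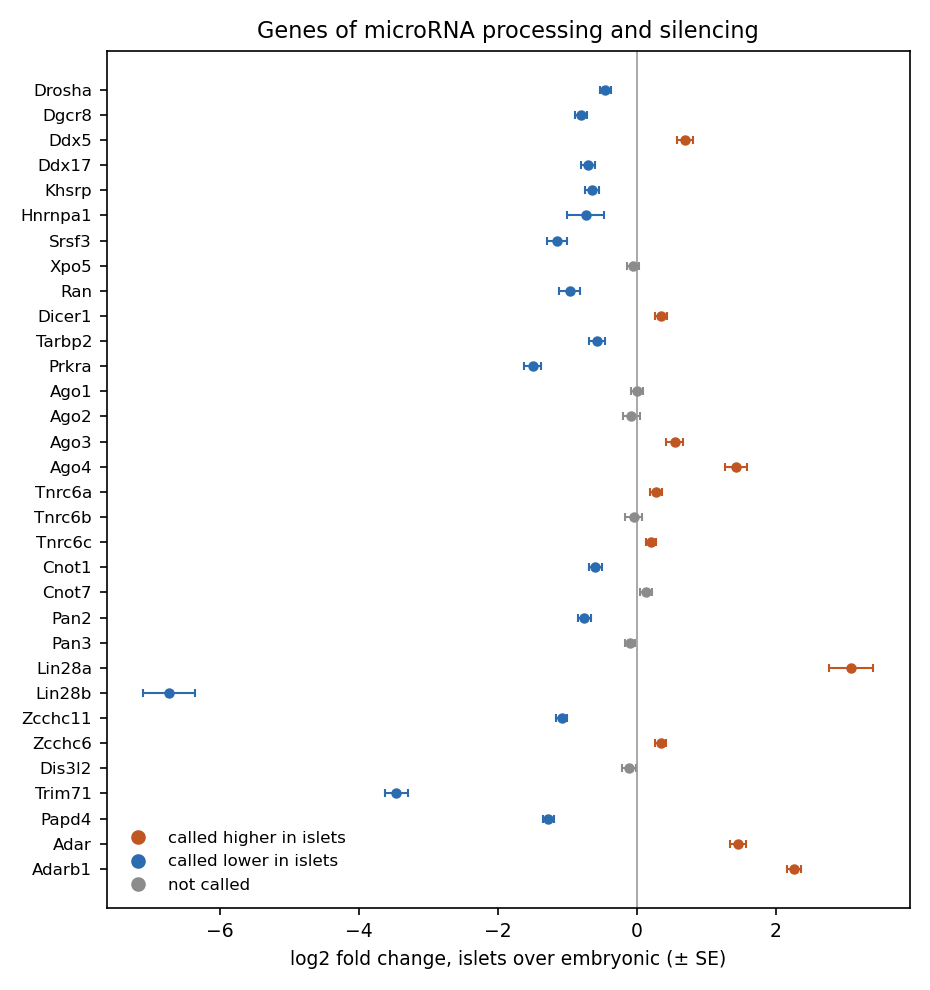
Log2 fold change (islets over embryonic pancreas) of the 32 microRNA processing and silencing genes, ordered by step, with SE bars and colours for genes called higher, called lower and not called. Lin28b and Trim71 lie at the low end and Lin28a and Adarb1 at the high end, and Drosha, Dgcr8, Dicer1 and Ago2 lie within 1 of 0.

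Loci near the threshold were few in reads. The filter left out 22 names at 10 or more in exactly 2 libraries, among them Mir344 (3.05 ± 1.09 against 12.9 ± 2.65), Mir802 (14.3 ± 7.95 against no read) and Mir142hg (10.4 ± 4.08 against 0.732 ± 1.27). Just inside it stood Mir483 with 11.8 ± 0.592 and Mir384 with an islet mean of 12.6 ± 2.11. No test was made on these values.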

How the data were processed

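RNA from 3 e15.5 pancreas and 3 adult islet libraries was measured by RNA-seq. The submitters' processing notes name the mm10 build and the tools DESeq2, CASAVA 1.8.2, Cufflinks 1.2.1 and TopHat 1.3.2. Which program counted reads, on which annotation and with which strand setting, is not given in the sources used here. Gene values as deposited by the authors are a signal, each count scaled by its library's size factor. Whole reads were recovered at a tolerance of 0.01 for 100% of values, except that the step of the second islet library (0.992) is too close to 1 to be told from it by that test alone. The deposited table also holds the authors' log2 fold changes, fold values, scores and p-values, which were not used. Reads not assigned to a gene for any reason, low alignment quality included, made up 40.7% to 54.6% of the reads and stayed out.

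Members and lists were chosen with earlier results of these data known. Log2(signal + 1) of genes at 10 or more in at least 3 libraries was tested with limma 3.58.1 (trend, R 4.3.3; 4 residual degrees of freedom), Benjamini-Hochberg adjusted; edgeR 4.0.16 and DESeq2 1.42.0 were run on recovered reads as alternatives and called 16072 and 15413 genes, against 15770 with limma. Named were all host genes, members of the microRNA lists, up to 6 loci each way that were called without overlap and averaged 30 or more in their higher group, the 4 highest loci of each single group, the loci highest per kb, the hosts of these, and the steepest and core genes of the processing list. The fit was tested on simulated data. Places came from GENCODE M21, sequences from RefSeq. Counting intervals are exact 95% intervals, cover counting error only, and a group at 0 allows 3 reads. Same-numbered libraries correlated at 0.0369, 0.0775 and 0.00540 after removing group means, and different-numbered ones at -0.0763 to 0.0480. The labels do not say whether the numbers pair libraries, and these small values cannot settle it.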

Additional observations from a re-analysis of the deposited data

How the results depend on the processing

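The values at precursor loci are limited by depth: those at 10 or more in 1 group alone rest on 38 to 230 embryonic reads or 36 to 67 islet reads. Quantile normalization called 7 precursor loci higher and 4 lower, and 5 processing genes higher and 21 lower. Over all genes it called 73.7%, 8247 higher and 7720 lower. Leaving the 20 most abundant genes out of the scaling moved the median over all genes tested from -0.03 to -0.26 (log2). That scaling called 6636 genes higher and 9506 lower against 7845 and 7925. Precursor loci were called 3 higher and 19 lower, and processing genes 5 higher and 18 lower. With no filter, 43 precursor loci were called higher and 98 lower of 627, and 2 host genes higher and 6 lower of 10. Over all 37761 genes that setting called 49.6%, 8635 higher and 10098 lower. It includes loci that are high in 1 group alone, so these counts are a description. With a minimum of 50, 3 precursor loci and 3 host genes reached it in both groups. Of these, 0 precursor loci were called higher and 2 lower, and 1 host gene higher and 2 lower. Of all 16103 genes at that minimum, those high in 1 group alone included, 78.5% were called. Mir6236, Mir692-2 and Mir670hg reached 50 in islets alone and were left out of these counts. Mir6236 and Mir670hg kept their calls at that minimum. Precursors wholly within introns had a median difference from the host of -0.073 against 0.06. Signs that turned were those of uncalled loci. Mir148a went to 0.46 under quantile normalization, 0.00503 at a pseudocount of 0.1, 0.53 without embryonic library 2 and 0.11 without islet library 2. Under quantile normalization Mir1898 went to 0.0093, Mir1927 to 0.10, Mir381 to 0.11, Mir666 to 0.12 and Mir155hg to 0.070. Mir155hg went to 0.13 without islet library 3, and Ago2 to 0.040 without embryonic library 3. Leaving out each library in turn, Mir148a ranged from -0.45 to 0.53, Mir155hg from -0.74 to 0.13 and Ago2 from -0.217 to 0.040. The cause was not tested. Leaving out each library in turn gave 3 to 4 precursor loci higher and 9 to 15 lower, beside 67.2% to 76.0% of all genes called. With the replicate number as a block, 15612 genes were called against 15770, with 4 precursor loci higher and 13 lower. Whether the replicate numbers pair the libraries is not stated.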
